A study of Mus musculus with 20 samples.

Results

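The genes described here are 10 genes of the Wnt pathway, taken by name as the rows for Wnt4, Wnt5a, Wnt5b, Wnt6, Wnt7b, Axin2, Lef1, Tcf7, Lgr5 and Sfrp1 out of 43346 genes counted, in 20 mouse breast tumors. Each tumor came from a different [BALB/c-neuT x FVB/J] F1 female, and every mouse carried the neuT transgene, an activated rat Her2/neu oncogene that drives the mammary tumors, inherited from the BALB/c-neuT father. The animals formed tumors spontaneously in several glands, of which 1 was frozen when any tumor in the mouse reached the size limit, and RNA came from small pieces of whole tumor that were not sorted for a cell type. No animal without the transgene and no normal gland was part of the samples used here. Besides numbers, the sample names differ only in the words Lo (9 tumors) and Hi (11 tumors), whose meaning is not given in the sources used here, and tumors are called Lo_2, Hi_8 and so on after those names.

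Wnt proteins are secreted lipid-modified ligands that bind Frizzled receptors. In the canonical branch, binding together with an Lrp co-receptor spares beta-catenin from its destruction complex, and beta-catenin then joins TCF and LEF factors on DNA and switches on targets such as Axin2. Wnt5a and Wnt5b are known mainly for beta-catenin-independent signalling through receptors such as Ror2. In the mammary gland Wnt4 is a progesterone-induced ligand of luminal cells that drives side branching, Lgr5 marks a subset of basal cells, and several Wnt genes were first found as oncogenes in virus-induced mammary tumors of mice.

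The tumors had the RNA of epithelial tissue. All 8 luminal epithelial genes listed were above 1 RPKM on average, among them Krt18 at 558 and Epcam at 522 RPKM (RPKM is the count of a gene scaled by its listed length and by the total count of the tumor). Of 8 basal and myoepithelial genes 4 reached 1 RPKM. Fibroblast genes reached it in 7 of 8 and macrophage genes in 6 of 6, so each piece held several cell types, and fewer cells of a type cannot be told apart from less RNA per cell. Between 38765682 and 65465755 reads were counted per tumor, of which 6.29% to 27.7% fell on a ribosomal RNA locus.

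The ligands differed widely in level. Wnt5b, at 7.10 ± 3.36 RPKM (SD, n = 20), was the highest ligand per length, followed by Wnt5a at 3.07 ± 0.681 and Wnt7b at 1.58 ± 0.519 RPKM. In reads the order of the first 2 was the reverse, with a median count of 1321.5 for Wnt5a and 771 for Wnt5b. Their order by RPKM therefore rests on the listed lengths, 7822 bases for Wnt5a and 2654 for Wnt5b. Wnt4 stood at 0.401 ± 0.284 RPKM, and Wnt6 at 0.0264 ± 0.0246 RPKM. The secreted inhibitor Sfrp1, which binds Wnt proteins outside the cell, exceeded every ligand at 42.7 ± 9.50 RPKM. The TCF factors were low, with Tcf7 at 0.818 ± 0.230 and Lef1 at 0.227 ± 0.221 RPKM. Axin2, a scaffold of the destruction complex that is itself induced by beta-catenin, stood at 0.170 ± 0.0611 RPKM. Lgr5, a receptor for R-spondins, was at 0.0364 ± 0.0206 RPKM.

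**Figure D1:**
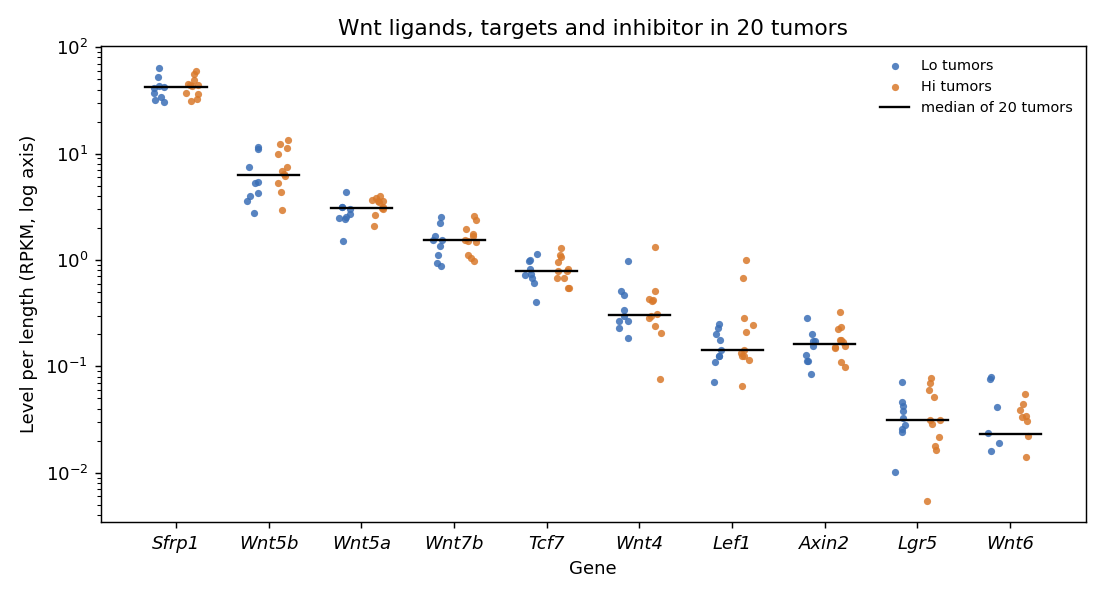
Level of each of the 10 genes in every tumor, as RPKM on a log axis, with Lo tumors in blue, Hi tumors in orange and the median of the 20 tumors as a line; the 6 tumors in which Wnt6 had no read cannot be drawn on this axis. Sfrp1 lies above every ligand and Lo and Hi points overlap for each gene.

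In the order of levels per length, 7 of 9 neighbouring pairs differed beyond their spread over tumors (sign-flip permutation test of the log2 ratio of RPKM, two-sided, adjusted p between 3e-05 and 0.00018). The order itself was taken from the same values, and the listed length of a gene enters its ratios as a constant. Sfrp1 was above Wnt5b in 20 of 20 tumors and Wnt5b above Wnt5a in 19 of 20. Lef1 and Axin2 were not separated (adjusted permutation p = 0.496, Lef1 higher in 10 of 20 tumors). Lgr5 and Wnt6 were not separated either (adjusted permutation p = 0.124), and both rested on few reads.

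Wnt6 was close to the limit of detection, with 0 to 10 counts per tumor, a median of 2 and no count in 6 tumors. A count of 0 allows up to 3 read pairs in a library, each of which can give a count for either end. Wnt6 was therefore left out of the tests by the filter on low counts, which the other 9 genes passed. Lgr5 rested on 3 to 47 counts and Axin2 on 24 to 94 counts per tumor, against 285 to 1806 for Wnt5b and 5635 to 13343 for Sfrp1.

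Of the summed RPKM of all 19 mouse Wnt ligand genes, Wnt5b made up 47.5% ± 10.3 (SD, n = 20), Wnt5a 22.6% ± 5.90 and Wnt7b 11.5% ± 3.96. Wnt5a and Wnt5b together held between 51.2% and 82.9% of it. The next ligand was Wnt9a, at 5.18% ± 1.35, while Wnt4 held 2.90% ± 1.79. The RPKM of Wnt5b over that of Wnt5a ran from 0.813 in Hi_1 to 4.59 in Lo_1, with a median of 2.07. The 2 related ligands thus kept no fixed ratio from tumor to tumor.

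The other genes of the pathway were read from 9 lists by role, chosen with earlier results of these data known, which hold 88 genes. Of 19 ligands 3 averaged at least 1 RPKM, all of them among the genes described here, and 10 were below 0.1 RPKM, among them Wnt1 and Wnt3a, the classic canonical ligands. Receptors were more abundant, with 13 of 16 at 1 RPKM or more. They were led by Ptk7, a co-receptor of the non-canonical branch, at 47.4 RPKM, by the co-receptors Lrp5 at 27.0 and Lrp6 at 21.3 RPKM and by the Frizzled receptor Fzd9 at 26.6 RPKM. Wls, which carries Wnt proteins to the cell surface, stood at 35.1 RPKM.

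Beta-catenin itself (Ctnnb1) averaged 193 RPKM, and 9 of the 10 genes listed for beta-catenin, its destruction complex and the Dishevelled proteins reached 1 RPKM, the exception being Axin2. The kinase genes Gsk3a and Csnk1a1 stood at 37 and 29.3 RPKM, and Axin1, the constitutive relative of Axin2, at 12.7 RPKM. Among 11 secreted inhibitors, Sfrp1 was above Sfrp2 at 3.37 and Dkk3 at 2.58 RPKM, and Dkk1, Dkk4 and Notum were each below 0.1 RPKM. Of the R-spondin receptors, Lgr4 stood at 11.3 and Lgr6 at 3.71 RPKM, both above Lgr5.

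The listed targets split by level, with 7 of 16 at 1 RPKM or more. Among these were Nkd2 at 8.55, Tnfrsf19 at 8.49 and Znrf3 at 2.27 RPKM. Ccnd1 and Myc, which many other signals also induce, stood at 127 and 25.2 RPKM, the adhesion receptor Cd44 at 11.1 and Rnf43, a ubiquitin ligase that removes Frizzled from the surface, at 9.90 RPKM. Sp5 was at 0.00195 RPKM and Lgr5, Axin2, Lef1 and Tcf7 all averaged below 1 RPKM. Among the coactivators listed with the TCF factors, Bcl9l stood at 18.5, Pygo2 at 13.2 and Bcl9 at 5.45 RPKM. The other TCF factors, Tcf7l1 at 3.25 and Tcf7l2 at 2.40 RPKM, had higher means than Tcf7 and Lef1.

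**Figure D2:**
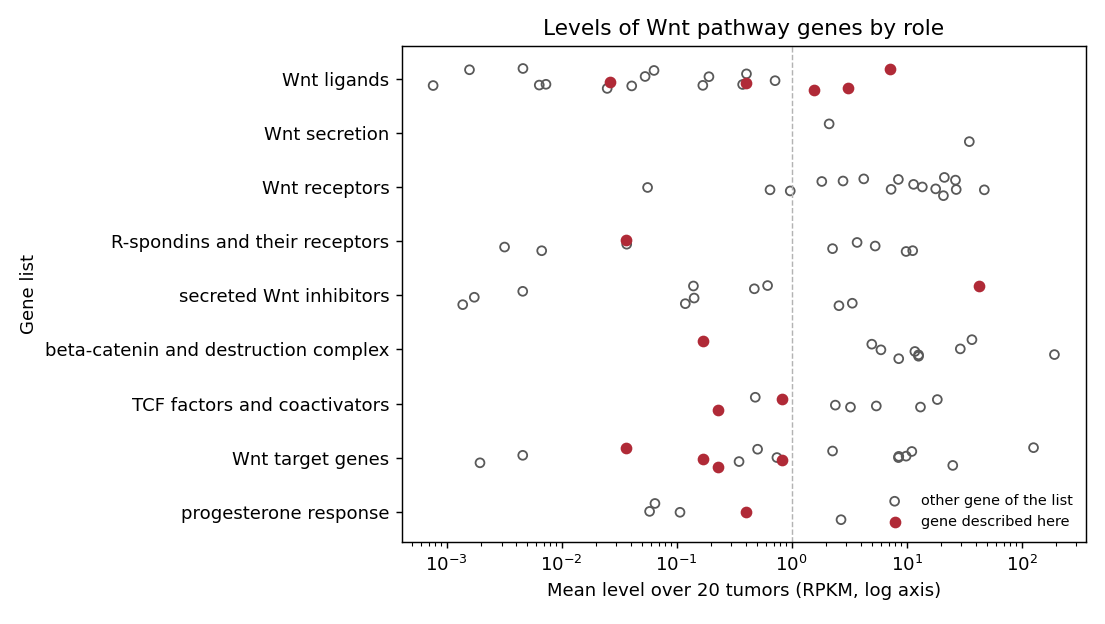
Mean level over the 20 tumors, as RPKM on a log axis, of every gene in 9 Wnt pathway lists (rows), with the 10 genes described here in red, other genes as open circles and a dashed line at 1 RPKM; a gene in more than 1 list is drawn in each. Receptors lie mostly to the right of the line, most ligands to its left, and Sfrp1 is the highest secreted inhibitor at 42.7 RPKM.

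Wnt5b is encoded on the minus strand at chr6:119432531-119544347 (mm10) and Axin2 on the plus strand at chr11:108920349-108950783. Promoter windows, each from 250 bases before to 50 after a RefSeq start (GRCm38.p6), were found for 6 of the 10 genes, Wnt4, Wnt5b, Wnt6, Axin2, Lef1 and Tcf7, and not for Wnt5a, Wnt7b, Lgr5 and Sfrp1. A single window is shown for the ligand whose log2 CPM moved with the most other genes, and another for the target used as a readout of beta-catenin. Capitals mark the TCF words searched, CTTTGAA and CTTTGAT on both strands, which do not overlap each other. The first window belongs to an internal start of Wnt5b (chr6:119449337-119449636, minus strand) and the second to the start of Axin2 (chr11:108920099-108920398, plus strand).
Wnt5b, internal start: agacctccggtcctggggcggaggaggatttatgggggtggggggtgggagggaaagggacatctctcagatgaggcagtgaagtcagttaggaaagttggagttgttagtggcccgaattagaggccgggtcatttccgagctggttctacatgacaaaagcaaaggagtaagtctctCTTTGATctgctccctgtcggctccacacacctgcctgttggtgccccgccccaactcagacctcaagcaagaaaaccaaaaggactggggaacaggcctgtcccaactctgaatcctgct
Axin2: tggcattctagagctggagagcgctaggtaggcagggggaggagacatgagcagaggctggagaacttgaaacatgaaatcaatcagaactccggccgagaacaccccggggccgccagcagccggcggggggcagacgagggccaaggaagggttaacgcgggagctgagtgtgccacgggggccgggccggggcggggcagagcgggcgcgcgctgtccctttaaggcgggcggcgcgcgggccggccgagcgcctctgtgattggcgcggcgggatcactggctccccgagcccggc
This Wnt5b window held 1 word and was the only 1 of 12 windows of these genes with any. That share is close to the 8.65% of all windows (2842 of 32851) that held at least 1. The other Wnt5b windows, among them that at the start of the gene (chr6:119544298-119544597), held 0 words, so the Wnt5b window printed is the one with the word. The Axin2 window held none, which says only that these letters are not in this stretch.

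The genes also differed in how much they varied between tumors. CPM is used for this, a gene's count relative to the TMM-scaled library size, a scaling that corrects for genes that take a large part of a library. The SD of log2 CPM over the 20 tumors was 0.948 for Lef1, 0.841 for Wnt4, 0.778 for Lgr5 and 0.670 for Wnt5b. It was 0.449 for Axin2, 0.401 for Wnt7b, 0.387 for Wnt5a, 0.385 for Tcf7 and 0.281 for Sfrp1. The median over all 18883 genes tested was 0.251, with quartiles at 0.170 and 0.438. Counting alone, with the ends of a read pair taken as counted separately, gives an SD of 0.583 for Lgr5 and 0.315 for Axin2, but only 0.0743 for Wnt5b and 0.0606 for Wnt5a.

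Set beside genes of like level (mean log2 CPM within 0.5), Wnt5b stood out: 98.0% of 2590 such genes had a smaller SD. The share was 95.7% for Lef1, 93.9% for Wnt4, 93.0% for Wnt5a and 89.3% for Sfrp1. Axin2 was ordinary for its level, with 42.2% of genes below it, as was Tcf7 with 57.5%. From lowest to highest tumor, CPM spanned 18.1-fold for Wnt4, 16.2-fold for Lef1, 4.72-fold for Wnt5b and 1.78-fold for Sfrp1. No tumor was measured more than once, so the spread between tumors includes that between libraries.

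For Lef1 and Wnt4 the span came from a few tumors. Lef1 was at 8.66 CPM in Hi_8 and 6.08 in Hi_4, and the next tumor, Lo_11, was at 2.33 CPM. Wnt4 reached 5.61 CPM in Hi_8 and 4.39 in Lo_11, with Lo_9 next at 2.20 CPM, and was lowest at 0.310 CPM in Hi_5. Wnt5b was instead spread evenly, from 7.42 CPM in Hi_1 through a median of 16.8 to 35 in Hi_5, with Hi_8 at 32.9 and Hi_11 at 30.4 CPM.

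Tumor Hi_8 stood at the top for most of these genes. It was the highest of 20 tumors for 5 of 9 tested genes (Wnt4, Wnt7b, Axin2, Lef1 and Tcf7), and among the 3 highest for 8 of 9, Lgr5 being the exception. Over all genes tested, Hi_8 was highest for 6.59% and among the 3 highest for 17.2%. Its share on the ribosomal RNA locus, 12%, lay inside the range of the other tumors. The comparison of Lo and Hi, the 5 strongest pairs among these genes and the relations with all genes, markers and chromosomes were repeated without it.

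The samples' only named groups are Lo and Hi, and the question put to them was whether any of the 10 genes differed between the groups. None of them passed the test. Across all genes, 0 of 18883 (0%) passed at an adjusted p under 0.05 (edgeR quasi-likelihood test, Benjamini-Hochberg adjustment), and 1045 (5.53%) had an unadjusted p under 0.05. Of the 9 tested genes described here, 0 passed and 0 had an unadjusted p under 0.05, and the Lo and Hi ranges overlapped for each.

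Among the ligands, Wnt5b had 8.12, 14.4 and 28.6 CPM as lowest, median and highest in Lo, and 7.42, 17.2 and 35 CPM in Hi. Its log2 fold change, Hi minus Lo, was 0.29 (standard error 0.270, 95% interval -0.25 to 0.83). Hi_5, Hi_8 and Hi_11 lay above the highest Lo tumor and Hi_1 below the lowest, and the other 7 Hi tumors fell within the Lo range.

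Wnt5a ran through 11, 23.1 and 37.5 CPM in Lo and 15.6, 26.7 and 31.6 CPM in Hi, with a log2 fold change of 0.11 (standard error 0.156). Both its lowest and its highest tumor were Lo tumors, Lo_8 and Lo_4. Wnt7b, a ligand of the canonical branch in several epithelia, had 4.24, 6.94 and 9.68 CPM in Lo and 4.46, 6.89 and 11.5 CPM in Hi, a log2 fold change of 0.03 (standard error 0.174).

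Wnt4 had 0.831, 1.3 and 4.39 CPM in Lo and 0.310, 1.3 and 5.61 CPM in Hi, and its log2 fold change was -0.02 (standard error 0.374), or -0.399 without Hi_8. Each group thus had 1 tumor well above its others, Lo_11 and Hi_8. For Wnt6, counts were 0 to 10 in Lo and 0 to 6 in Hi, and no test was made.

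Sfrp1 lay at 144, 196 and 246 CPM in Lo and 138, 180 and 247 CPM in Hi, with a log2 fold change of -0.03 (standard error 0.120, 95% interval -0.27 to 0.21). This was the narrowest interval of the 9 genes. Lgr5 had 0.114, 0.311 and 0.645 CPM in Lo and 0.0566, 0.298 and 0.776 CPM in Hi, with a log2 fold change of -0.01 (standard error 0.349).

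Of the TCF factors, Lef1 had the largest difference of the 9 genes, with 0.661, 1.37 and 2.33 CPM in Lo against 0.535, 1.23 and 8.66 CPM in Hi. Its log2 fold change was 0.76 (standard error 0.432, p = 0.0932, adjusted p = 0.984 with edgeR), although the Hi median was below the Lo median. The difference of the mean log2 CPM was 0.34 (exact permutation test, two-sided, p = 0.447), and without Hi_8 the log2 fold change was 0.331. Tcf7 ran through 1.15, 2.06 and 2.83 CPM in Lo and 1.38, 2.02 and 3.46 CPM in Hi, with a log2 fold change of 0.01 (standard error 0.175).

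Axin2, the target, had 0.510, 0.824 and 1.63 CPM in Lo and 0.547, 0.924 and 1.80 CPM in Hi, with a log2 fold change of 0.09 (standard error 0.217). Without Hi_8 the sign turned for Axin2 (-0.040), Wnt7b (-0.063), Tcf7 (-0.081) and Lgr5 (0.010), so no direction is given for these. Among the 69 tested genes of the pathway lists 0 passed, and 7 had an unadjusted p under 0.05, against 5.53% of all genes tested. Of these the ligand Wnt9b and the receptors Fzd6, Fzd8 and Ror2 had higher values in Hi, and Axin1, Tcf7l1 and the target Ascl2 lower ones. Their median log2 fold change over the 69 was -0.01, against -0.00 over all genes tested.

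**Figure D3:**
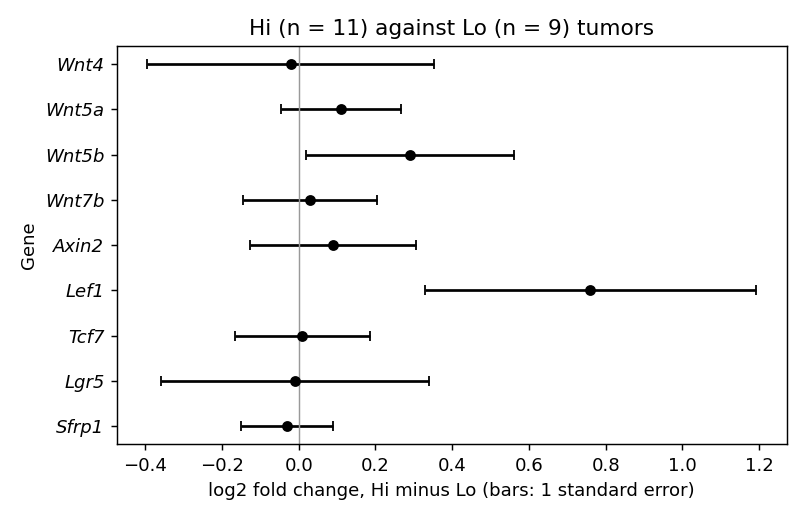
Log2 fold change of the 9 tested genes between Hi (n = 11) and Lo (n = 9) tumors from edgeR, with bars of 1 standard error on either side and a line at 0. Lef1 lies farthest from 0, at 0.76, and no gene passed the test.

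Because the tumors differed so much within Lo and Hi, the genes were next compared over the 20 tumors, to ask whether the Wnt genes rise and fall together. Of 36 pairs of the 9 tested genes, 0 passed (Pearson's r of log2 CPM, permutation test, adjusted over all genes tested for each gene). The values of r ran from -0.243 (Lef1 with Lgr5) to 0.551, with a median of 0.227, and 30 were positive. An unadjusted permutation p under 0.05 was found for 5 of the 36 pairs. Over all genes tested, 6.32% (with Axin2) to 15.8% (with Wnt5b) had such a p, and the share of the pairs lies inside that range.

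Wnt5b and Tcf7 had the highest r, 0.551 (permutation p = 0.0121, adjusted p = 0.156 from the side of Wnt5b; Spearman's rho 0.573, permutation p = 0.00978). It was 0.750 within Lo, 0.407 within Hi and 0.648 once the 2 tumors most distant from the median of Wnt5b were left out. The pair therefore kept its sign in both groups without passing the adjusted test.

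Wnt4 and Lef1 had r = 0.538 (permutation p = 0.0174, adjusted p = 0.630; rho 0.323, permutation p = 0.165), which was 0.270 once the 2 tumors most distant from the median of Wnt4 were left out and 0.305 without Hi_8. Wnt4 and Axin2 had r = 0.479 (permutation p = 0.0337, adjusted p = 0.713; rho 0.417, permutation p = 0.0695), and 0.269 without Hi_8. Both relations of Wnt4 were thus smaller without Hi_8, its highest tumor.

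Wnt7b had r = 0.523 with Tcf7 (permutation p = 0.0179, adjusted p = 0.373; rho 0.472, permutation p = 0.0361) and 0.501 with Sfrp1 (permutation p = 0.0252, adjusted p = 0.403; rho 0.421, permutation p = 0.0657). Once the 2 tumors most distant from the median of Wnt7b were left out, these were 0.384 and 0.517, and without Hi_8 0.400 and 0.406. Axin2 and Lef1, both targets of beta-catenin, had r = 0.415 (permutation p = 0.0687; rho 0.220, permutation p = 0.349), which was 0.0534 once the 2 tumors most distant from the median of Axin2 were left out. The ligands Wnt5a and Wnt5b had r = 0.332 (permutation p = 0.154; rho 0.293, permutation p = 0.209), which was 0.116 once the 2 tumors most distant from the median of Wnt5a were left out.

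**Figure D4:**
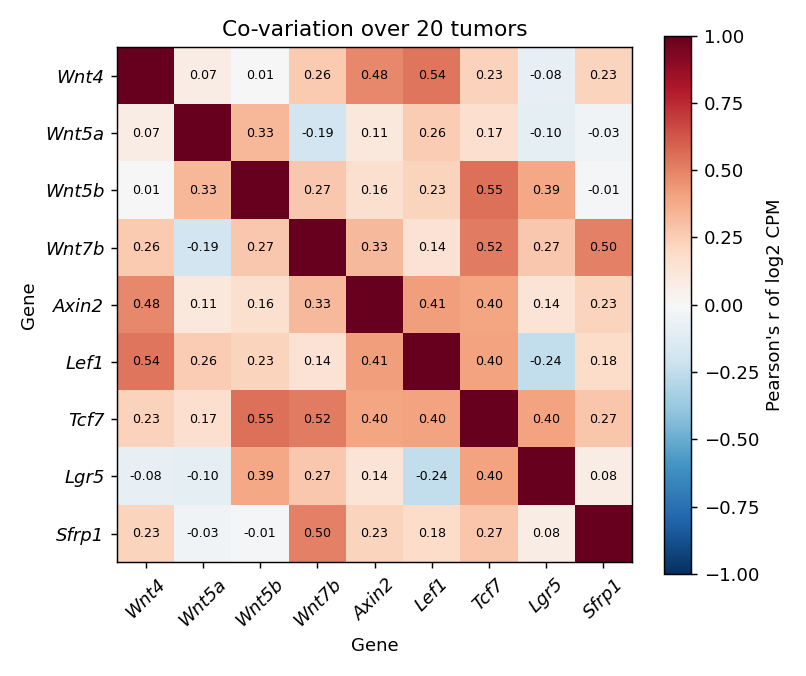
Pearson's r of log2 CPM over the 20 tumors for each pair of the 9 tested genes, printed in each cell and coloured from blue (-1) to red (1). Most cells are pale red, the highest being Wnt5b with Tcf7, and no pair passed the adjusted test.

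Against every other gene tested, Wnt5b stood apart from the other 8. At an adjusted permutation p under 0.05, 561 of 18882 genes (2.97%) moved with Wnt5b, 477 positively and 84 negatively. For each of the other 8 genes 0 of 18882 (0%) passed, while 6.32% (Axin2), 6.63% (Lef1), 6.84% (Wnt4), 8.55% (Lgr5), 8.87% (Sfrp1), 10.3% (Wnt7b), 12.8% (Wnt5a) and 14.2% (Tcf7) of genes had an unadjusted p under 0.05, against 15.8% for Wnt5b. The difference between Wnt5b and the others in these counts was not itself tested, and on a log2(RPKM + 1) scale 2141 genes passed for Wnt7b and 636 for Lgr5. The 3 genes most like Wnt5b were Rassf4, a Ras-association domain protein, Ptger4, a prostaglandin E2 receptor, and Basp1, a membrane-bound signalling protein.

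Rassf4 ran from 16.7 to 47.1 CPM and had r = 0.951 with Wnt5b (rho 0.934), with 0.931 within Lo and 0.962 within Hi. Its lowest and highest tumors, Hi_1 and Hi_5, were also those of Wnt5b. Ptger4 had r = 0.938 (rho 0.922) and Basp1 r = 0.928 (rho 0.907). Once the 2 tumors most distant from the median of Wnt5b were left out, r was 0.930, 0.921 and 0.931, respectively. These 3 were chosen for their r, which is therefore a description.

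Of the other 68 tested genes of the pathway lists, 2 passed with Wnt5b, both positively, a share close to the 2.97% of all genes. The R-spondin receptor Lgr6 had r = 0.785 (adjusted permutation p = 0.00983) and the secreted Dkk3, a divergent member of the Dickkopf family, r = 0.701 (adjusted permutation p = 0.0321). Of 51 tested marker genes 3 passed with Wnt5b, against 2.97% of all genes. They were the oxytocin receptor Oxtr, listed as a myoepithelial gene, at r = 0.807 (adjusted permutation p = 0.00424), and the T cell genes Cd3e at 0.779 (adjusted permutation p = 0.0105) and Cd8a at 0.700 (adjusted permutation p = 0.0190). Cd3e rested on 3 to 38 counts per tumor and Cd8a on 1 to 42. No other tested gene of their lists passed. With the mean z-score of the basal and myoepithelial list, Wnt5b had r = 0.209 (adjusted permutation p = 0.744).

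The genes that passed with Wnt5b were unevenly spread over the genome. Of the 561, 184 (32.8%) lay on Chr4, which holds 6.17% of the genes tested, although Wnt5b lies on Chr6. The other 377 lay elsewhere, and when only the 17717 genes outside Chr4 were tested, 284 passed. The dosage of a chromosome is used below for the median over its genes of log2 CPM relative to the 20 tumors, minus that over all autosomes, and is a measure of RNA, not of DNA copies.

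The dosage of Chr4 ran from -0.21 in Lo_2 to 0.37 in Hi_5, the tumor with most Wnt5b. Its r with Wnt5b was 0.777 (permutation p = 3e-05, adjusted p = 0.0054 over 180 relations of the 9 genes with 20 chromosomes; rho 0.756, permutation p = 0.00023). It was 0.921 within Lo, 0.649 within Hi and 0.839 without Hi_8. Without the 2 tumors farthest from the median dosage r was 0.706, and the adjusted p was then 0.200. Hi_8 and Hi_11 held 32.9 and 30.4 CPM of Wnt5b at Chr4 dosages of -0.01 and -0.02. The relations with all chromosomes were added after the data were seen.

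**Figure D5:**
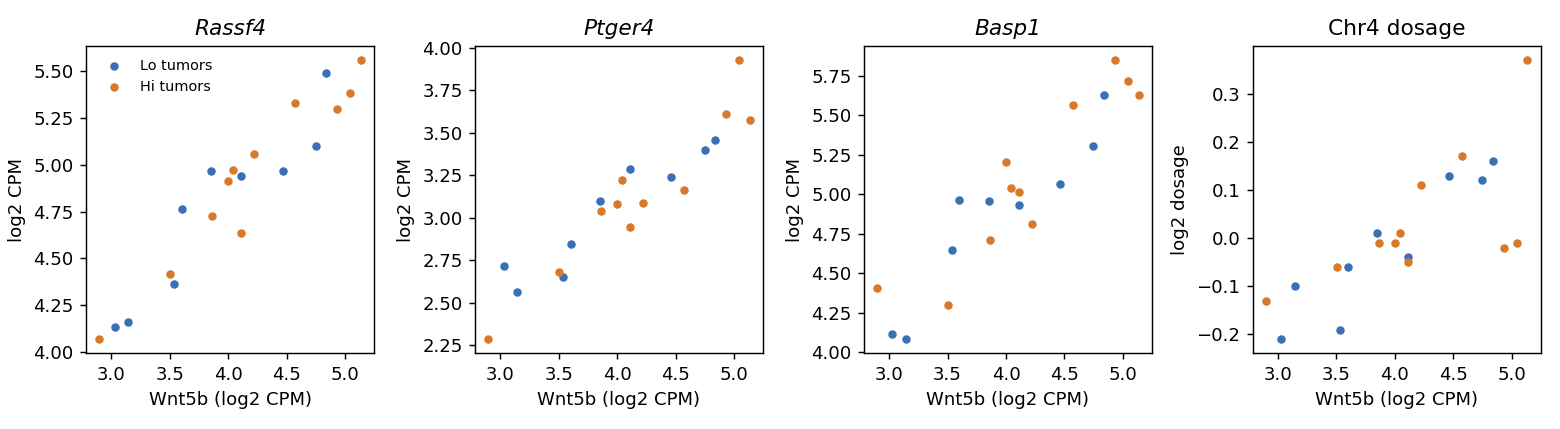
Wnt5b (log2 CPM, x axis of each panel) in 9 Lo (blue) and 11 Hi (orange) tumors against log2 CPM of Rassf4, Ptger4 and Basp1 and against the log2 dosage of Chr4. The 3 genes follow Wnt5b in both groups, and in the last panel 2 Hi tumors with high Wnt5b lie near a dosage of 0.

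For Lgr5 and Wnt5a the most alike genes also gathered on a chromosome. Of the 50 genes most like Lgr5 (on Chr10), 38 (76.0%) lay on Chr4, which holds 6.33% of the genes ranked. For Wnt5a (on Chr14), 26 of 50 (52.0%) lay on Chr1, which holds 6.30%. For every other gene tested the commonest chromosome held a smaller part, down to 6 of 50 for Axin2. The commonest chromosome was picked for each gene after counting, so some excess is built in, and the excess was not tested. For Lgr5 the r with the dosage of Chr4 was 0.671 (permutation p = 0.00148, adjusted p = 0.133), with rho 0.735 (permutation p = 0.00037, adjusted p = 0.0333 over the 180 values of rho) and 0.538 without the 2 farthest tumors. Wnt5a had r = 0.653 with Chr1 (permutation p = 0.00506, adjusted p = 0.182; rho 0.244, permutation p = 0.299), which was -0.0751 without Lo_8 and Hi_7, the 2 tumors farthest from the median dosage. These tumors had the lowest Chr1 dosages, -0.30 and -0.23, and the lowest Wnt5a, 11 and 15.6 CPM, and the relation rests on them. Wnt7b had r = 0.611 with the dosage of Chr19 (permutation p = 0.00443, adjusted p = 0.182, rho 0.693 with permutation p = 0.00124). This r was 0.641 without the 2 farthest tumors, and 0.711 (adjusted permutation p = 0.0387) when genes with a mean CPM of 1 or more entered the dosage. The dosage of Chr19 varied little, with an SD of 0.0201, against 0.136 for Chr4 and 0.0963 for Chr1. The relation was not particular to Chr19, since Wnt7b had r = 0.555 with Chr11 and -0.543 with ChrX (adjusted permutation p = 0.192 and 0.201).

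With the dosage of the chromosome that carries them, 0 of the 9 genes passed (0 of 9 relations at an adjusted permutation p under 0.05). The r for Wnt4 with Chr4 was -0.246 (permutation p = 0.288; rho 0.125, permutation p = 0.597), and for Lgr5 with Chr10 -0.462 (permutation p = 0.0390, adjusted p = 0.351; rho -0.451, permutation p = 0.0470). Wnt4 was lowest in Hi_5, the tumor with the highest Chr4 dosage.

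For the other genes the 3 most alike are given as a description, with no claim about shared control. For Wnt4 they were Gad1 at r = 0.817, Cipc at 0.795 and Scnn1a, a subunit of the epithelial sodium channel, at 0.767, and each was highest in Hi_8 and lowest in Hi_5, as Wnt4 was. For Sfrp1 they were the sialyltransferase St6gal1 at r = 0.849, the protease inhibitor Serpine2 at 0.818 and the basement membrane collagen Col4a2 at 0.807. For Tcf7 they were the matrix protein tenascin C (Tnc) at r = 0.851, 8030451A03Rik at 0.812 and Anp32b at 0.798, all 3 on Chr4. Tcf7 had r = 0.395 with the dosage of Chr4 (permutation p = 0.0843, adjusted p = 0.523, rho 0.472 with permutation p = 0.0365), with 0.820 within Lo and 0.0522 within Hi. The part of Chr4 dosage in the relation of Tcf7 with Wnt5b was not tested.

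Wnt7b was most like Actr1a at r = 0.788, Fam104a at 0.786 and the transcription factor gene Cebpb at 0.774, and Axin2 most like Scarf2 at 0.713, Frem1 at 0.691 and Tgfbrap1 at 0.686. For Lef1 they were Lefty1, a secreted Nodal antagonist, at r = 0.796, Ap1s2 at 0.776 and Tifa at 0.760. For Lgr5 they were Pou2f2, a B cell transcription factor gene, at r = 0.775, Mrto4 at 0.773 and Ythdf2, a reader of modified RNA, at 0.767. Wnt5a was most like Dstyk at r = 0.811, Slc41a1 at 0.801 and Lyplal1 at 0.791, all 3 on Chr1.

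Cell type markers were set beside each gene as scores, the mean z-score of a list. Of 90 relations of the 9 genes with 8 marker scores, the total count and the part of it on the ribosomal RNA locus, 0 passed. The highest with a marker score were Tcf7 with the endothelial score at r = 0.622 (rho 0.576) and with the fibroblast score at 0.589 (rho 0.541), Sfrp1 with the basal and myoepithelial score at 0.561 (rho 0.541), and Wnt5b with the T cell score at 0.535 (rho 0.477). Adjusted permutation p-values of r were 0.153, 0.187, 0.212 and 0.266 in this order, and without the 2 tumors of most distant score r was 0.433, 0.361, 0.514 and 0.399. The summed level of the 8 T cell genes was 2.53 to 5.02 CPM in Lo and 2.54 to 6.89 CPM in Hi, and Lck alone averaged 2.16 CPM. None of the 8 was at 0 in every tumor, but Cd3d had no count in 3 tumors and Cd2 in 2. The summed level of the 8 basal and myoepithelial genes was 35.7 to 70.0 CPM in Lo and 35.5 to 90.7 CPM in Hi. The part of the T cell and basal genes in the values of Wnt5b was not tested. Wnt7b had r = -0.658 with the ribosomal RNA share (permutation p = 0.00154, adjusted p = 0.139, rho -0.623 with permutation p = 0.00407). On a log2(RPKM + 1) scale r was -0.771 (adjusted permutation p = 0.0054). RPKM divides by a total count that includes this locus, so RPKM and the share are tied by calculation and this p adds no separate support.

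Reads of overlapping genes could reach some of these counts, since the strand setting of the counting is not given in the sources used here. Fbxl14, at 119479668 to 119482630 on the opposite strand inside Wnt5b, held 1082 to 2333 counts per tumor, and its r with Wnt5b was -0.310 (permutation p = 0.183; rho -0.311). The antisense gene Gm2670 over Wnt5a held 7 to 67 counts and AU022754 over Wnt7b 10 to 35. Gm11670 over Axin2 held 3 to 28 counts, against 24 to 94 for Axin2 itself.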

How the data were processed

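RNA of 20 tumors was isolated from frozen pieces, made into TruSeq mRNA libraries, sequenced in paired ends and trimmed by the authors to 100 bases. They processed reads with MapRseq and aligned them to mm10, and the submitters' processing notes name TopHat2 2.0.12, featureCounts 1.4.4 and the builds mm10 and hg19. The values deposited by the authors are raw gene counts, not normalized, in a table with a column for each tumor. The annotation release and strand setting are not given in the sources used here. Even counts made up 53.1% of counts between 1 and 10, so the ends of a pair were taken as counted separately.

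Totals per tumor were 38765682 to 65465755, and the limits given for counts of 0 cover counting error only. From the counts, RPKM was computed here with the total count and listed length, and log2 CPM with TMM factors and a prior count of 2. Lo and Hi (from the sample titles) were compared with edgeR 4.0.16 (filterByExpr, quasi-likelihood test, Benjamini-Hochberg adjustment at 0.05) in R 4.3.3, with DESeq2 1.42.0 as an alternative. Correlations used 100000 permutations of tumors, two-sided (Python 3.11.15, numpy 2.4.6, pandas 2.3.3, scipy 1.17.1), for which the smallest p is 1e-05, and levels of neighbouring genes were compared by sign-flip permutation on log2(RPKM + 0.01). Dosage rested on genes whose mean CPM was 5 or more. Tumors are single samples of separate mice, and p-values judge differences and correlations against the spread between them.

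The 10 genes and all lists were chosen with earlier results of these data known. The text names these 10 genes, up to 4 genes of the highest RPKM per list and those that pass a test, and for each tested gene the 3 genes of highest r among those with a mean log2 CPM not below 1. Pathway genes at low level or with an unadjusted p under 0.05, Tcf7l2, overlapping genes, Mir7671 and Serpina3g were added to the text once their values were known. The same holds for the targets Nkd2, Tnfrsf19 and Znrf3 and the T cell genes Cd3d and Cd2. Lists of markers covered luminal, basal, fibroblast, endothelial, T, B, macrophage and adipocyte genes, all found in the table, 1 of them (Adgre1, as Emr1) by its gene identifier. The scripts were tested on simulated counts: of 200 genes given a log2 fold of 1 between Hi and Lo among 18883, 161 were recovered with 5 unchanged genes called, as were 199 of 200 planted correlations among 2000 genes with 9 others called. Alternatives changed the normalization, filter, tool, scale, prior count, block, correlation measure and tumors included. Those leaving out Hi_8, the relations with all chromosomes and the test outside Chr4 were added after the data were seen.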

Additional observations from a re-analysis of the deposited data

Results flagged for a closer look

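Within the Lo tumors, Wnt4 in Lo_11, at 4.39 CPM, lay far from the others, of which the nearest was Lo_9 at 2.20 CPM. The gap was 0.615 of the group's range, above Dixon's 95% limit of 0.493 for 9 samples. Of 9 genes tested in this way 1 was past the limit, and chance gives about 1 in 20. The 11 Hi tumors are too many for this rule, so Hi_8 and Hi_4 were not tested by it.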

How the results depend on the processing

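Between Lo and Hi, the count of genes past the threshold was 0 with edgeR (1045 at an unadjusted p under 0.05), and 1 without the filter on low counts (Mir7671) or with DESeq2 (Serpina3g); none of the genes described here that were tested (Wnt6 only without the filter) passed under RLE factors, no filter, removal of the ribosomal RNA locus, DESeq2, the replicate block or omission of Hi_8. No pairing by the numbers in the sample names was visible in expression (r of deviations -0.418 to 0.208 over 9 pairs, 3 over 0.1, and 1 Lo tumor most like its own number). What these numbers stand for cannot be told from this. With the number as a replicate block over 18 tumors 0 genes passed, 932 at an unadjusted p under 0.05. Signs of fold changes turned for values near 0: under the block Wnt4 was 0.023 and Sfrp1 0.006, and Lgr5 was 0.003 with RLE factors, 0.003 without the filter and 0.008 with DESeq2; without Hi_8, Wnt7b was -0.063, Axin2 -0.040, Tcf7 -0.081 and Lgr5 0.010, and Wnt4 moved to -0.399 and Sfrp1 to -0.077. On log2(RPKM + 1), a scale without TMM, the genes that passed numbered 867 for Wnt5b, 2141 for Wnt7b, 636 for Lgr5 and 4 for Sfrp1. On this scale 1 relation with markers or technical measures passed, that of Wnt7b with the ribosomal RNA share, which is part of the total in RPKM. The cause of these counts was not tested. For Wnt5b the count was 284 when only the 17717 genes outside Chr4 were tested, against 377 of these in the test of all genes. Without Hi_8 the count for Wnt5b was 764. Relations with chromosome dosage that passed numbered 1, but 2 with a mean CPM of at least 1 (Wnt7b with Chr19 added), 2 by Spearman's rho (Lgr5 with Chr4 added) and 0 without the 2 farthest tumors, when Wnt5a with Chr1 turned to -0.0751. Of 149 values of single genes and relations under an alternative, 135 held both their sign and their side of the limit. Lgr5, Axin2 and Wnt6 are limited by their counts, and 1 library per tumor leaves technical spread unmeasured.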

Other observations

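The progesterone response genes listed beside Wnt4 were low in these tumors. The progesterone receptor gene Pgr averaged 0.107 RPKM, the RANK ligand gene Tnfsf11 0.0648 and Calca 0.0582 RPKM, against 2.69 RPKM for Areg, an EGF receptor ligand. Of the 5 listed genes, Wnt4 included, 3 were tested between Lo and Hi and 0 passed. Log2 fold changes, Hi minus Lo, were -0.92 for Pgr (standard error 0.65), -0.76 for Areg (standard error 0.379) and -0.02 for Wnt4 (standard error 0.374). Pgr varied more than any of the 9 Wnt genes tested, with an SD of log2 CPM of 1.61, and rested on 2 to 288 counts per tumor.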
